A study of Homo sapiens with 6 samples.

Results

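KITLG and KIT, the gene pair that encodes stem cell factor and its receptor, were followed in 6 RNA samples of the HCT116 line, established from a human colorectal carcinoma. They were picked by symbol, 2 of the 57820 human genes in the table, and with the difference in KITLG between these samples already known, so their own levels are described here and not tested. The 3 DKO1 samples come from a derivative of HCT116 in which, by the submitters' account, the DNA methyltransferase genes DNMT1 and DNMT3B are knocked out, and the 3 WT samples come from the parental line; both were cultured in McCoy's 5A with serum. DKO1 is a single derived line, so the loss of the 2 methyltransferases and any other difference between the 2 lines cannot be told apart. By its title, the study concerns DNA methylation and the higher-order architecture of the genome, and its RNA data allow transcript levels to be compared between DKO1 and WT.

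KITLG is made as a membrane protein, and proteolytic cleavage releases a soluble form. It binds KIT, a receptor tyrosine kinase of the class III family, and the bound receptor pairs up and starts RAS-ERK, PI3K-AKT, SRC family and STAT signalling. The pair is known for its roles in blood progenitors, mast cells, melanocytes, germ cells and the interstitial cells of Cajal, the pacemaker cells of the gut wall. In the gut, epithelial and stromal cells make the ligand. The table holds 1 value per gene, so the membrane and soluble forms of KITLG are summed in it.

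DNA methylation in mammals falls mainly on cytosines followed by guanine (CpG), and both genes start within CpG-dense sequence, which is why their promoters are shown. Each sequence runs 5′ to 3′ along the gene's own strand, from 250 bases before the RefSeq start to 50 bases after it, with every CpG in capitals. The positions are on GRCh38.p14, which differs from the build of the deposited values: chr12:88580422-88580721 on the minus strand for KITLG and chr4:54657707-54658006 on the plus strand for KIT.
KITLG: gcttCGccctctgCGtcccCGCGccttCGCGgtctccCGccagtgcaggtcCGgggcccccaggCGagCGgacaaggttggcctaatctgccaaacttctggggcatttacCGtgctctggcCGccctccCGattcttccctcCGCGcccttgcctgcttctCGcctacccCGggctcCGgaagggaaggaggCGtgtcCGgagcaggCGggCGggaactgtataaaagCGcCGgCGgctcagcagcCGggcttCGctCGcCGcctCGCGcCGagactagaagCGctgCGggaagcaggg
KIT: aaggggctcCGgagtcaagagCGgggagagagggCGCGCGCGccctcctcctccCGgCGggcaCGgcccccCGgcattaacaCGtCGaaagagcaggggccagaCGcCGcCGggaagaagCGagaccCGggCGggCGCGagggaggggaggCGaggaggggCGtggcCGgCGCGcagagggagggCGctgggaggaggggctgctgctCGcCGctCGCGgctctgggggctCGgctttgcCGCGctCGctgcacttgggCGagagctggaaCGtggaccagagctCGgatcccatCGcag
The KITLG promoter held 34 CpG in 300 bases and the KIT promoter 38, against a median of 14 over 35114 RefSeq promoters of the same length. Fewer CpG were found in 84.4% of those promoters than in that of KITLG and in 90.1% than in that of KIT. The letters TATAAA, the core of a TATA box, occurred once in the KITLG window, 29 bases before the start, and not in the KIT window; 11.5% of all promoters held them on either strand. The letters GGGCGG, a GC box, occurred 2 times in the KITLG window and 1 time in the KIT window when both strands were searched, and 45% of all promoters held them. Methylation of these sequences was not analysed here.

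The targeted genes check the labels in part, since transcripts of a disrupted allele still count. DNMT1 was at 31.07, 30.81 and 46.82 TPM in the DKO1 samples and at 244.87, 249.97 and 231.01 TPM in the WT samples (limma adjusted p = 3.59e-05), where TPM is a level per transcript length, with equal totals for all samples. DNMT3B was at 4.86, 4.85 and 3.56 TPM in DKO1 and 8.22, 7.09 and 6.77 TPM in WT (limma adjusted p = 0.03), and that call was lost in 4 of the 6 fits with a sample left out (adjusted p from 0.0535 to 0.11). The epithelial genes EPCAM and KRT8 were detected in all samples, at 371.29 to 500.38 and 142.33 to 258.21 TPM in DKO1 and at 457.29 to 536.37 and 325.78 to 488.37 TPM in WT, whereas the gut genes CDX1, LGR5 and VIL1 stayed below 0.5 TPM throughout. The share of mitochondrial transcripts was 26.9%, 27.7% and 21.2% in DKO1 replicates 1, 2 and 3, and 19.7% to 20.1% in WT. Of 13604 tested genes, 18.8% were called higher and 9.6% lower in DKO1 at an adjusted p below 0.05, or 2558 and 1306 genes, 28.4% in all. With the replicate number as a block, which pairs same-numbered samples, the shares were 22.4% and 13.4%. Median-ratio scaling gave 2080 higher and 2094 lower, and quantile normalization 1817 and 1939, so the balance of rises and falls over all genes depends on the scaling.

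KITLG (ENSG00000049130.9, chromosome 12) was abundant in WT and low in DKO1. It was at 21.82, 27.34 and 33.85 TPM in DKO1 replicates 1, 2 and 3, and at 449.04, 477.72 and 496.04 TPM in the WT replicates. Every DKO1 value lay more than 10-fold below every WT value, and the DKO1 samples varied more among themselves, with a coefficient of variation of 21.8% against 4.99% in WT. The means were 27.7 ± 6.02 TPM in DKO1 and 474 ± 23.7 TPM in WT (SD, n = 3 each), 17.1-fold lower in DKO1, or −4.07 on the log2(TPM + 1) scale. By mean level KITLG was number 4212 of 19263 protein-coding genes in DKO1 and number 252 in WT. Groups that did not overlap with DKO1 below WT were found for 17.8% of the tested genes. The difference was −3.97 with the mitochondrial and non-human rows removed and the rest rescaled, and the share of mitochondrial transcripts was lowest in DKO1 replicate 3, the DKO1 sample with the most KITLG. In RNA from whole cultures, fewer cells making KITLG and less KITLG RNA per cell cannot be told apart.

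KIT (ENSG00000157404.11, chromosome 4) was listed at 0 in every WT sample and detected at a low level in every DKO1 sample. It was at 0.57, 0.48 and 0.49 TPM in the DKO1 samples, a mean of 0.513 ± 0.0493 TPM (SD, n = 3). No ratio to WT is given, because values under the 2 decimals of the table are also listed as 0. KIT did not reach the 1 TPM in 3 samples required for testing, so of the pair only KITLG is among the tested genes. In being listed at 0 in WT and detected in DKO1, KIT was not unusual: 1843 genes were listed at 0 in all WT samples and above 0 in all DKO1 samples, 1025 of them protein-coding. Among those 1025, KIT was number 258 by DKO1 mean, above their median of 0.16 TPM, and 80 of them reached at least 1 TPM in every DKO1 sample. The converse, 0 in all DKO1 samples and above 0 in all WT samples, held for 44 genes, 10 of them protein-coding.

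The ligand stayed more abundant than its receptor in every sample. Per transcript length, KITLG exceeded KIT 38.3-fold, 57-fold and 69.1-fold in DKO1 replicates 1, 2 and 3, and no such ratio can be given in WT, where KIT was listed at 0. DKO1 thus had the receptor transcript at about 0.5 TPM beside a reduced ligand, and in WT only the ligand was detected at the 2 decimals given.

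**Figure D1:**
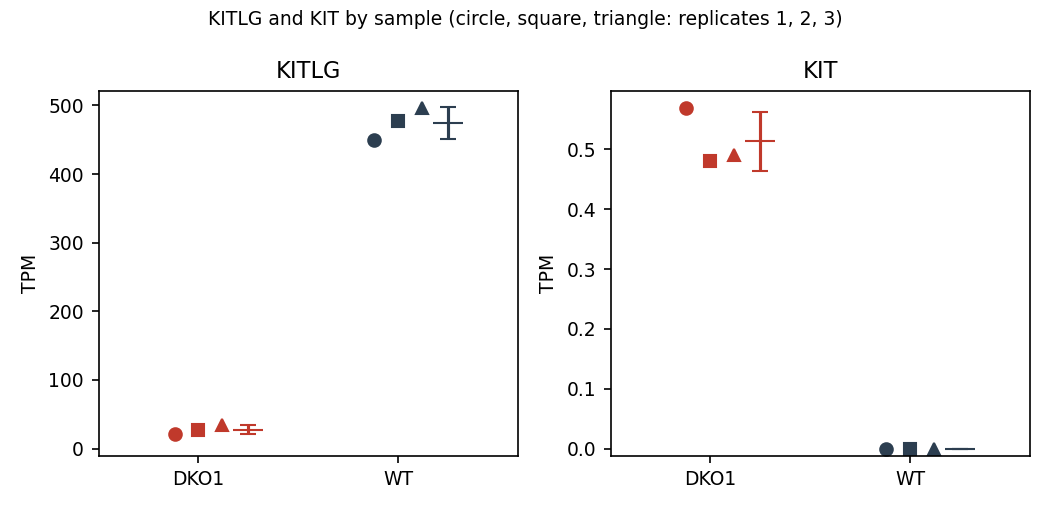
KITLG (left) and KIT (right) in TPM, with DKO1 samples left of WT samples in each panel; symbols are single samples, and the bar with whiskers is the mean and SD of 3 samples. KITLG lies between 21.82 and 33.85 TPM in DKO1 and between 449.04 and 496.04 TPM in WT, and KIT between 0.48 and 0.57 TPM in DKO1 and at 0 in WT.

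KITLG was the main ligand of the class III receptors in both lines, but by a narrower margin in DKO1. It made up 50%, 55.9% and 59% of the summed TPM of 8 class III ligands in the DKO1 samples and 97.3%, 97.6% and 98% in the WT samples. The others are the PDGF chains, which act on the PDGF receptors, CSF1 and IL34, which act on CSF1R, and FLT3LG, which acts on FLT3. PDGFC was at 9.16, 11.47 and 8.76 TPM in DKO1 and 4.45, 5.94 and 4.68 TPM in WT, and it rose 1.95-fold (log2 difference 0.84, SE 0.17, limma adjusted p = 0.0106). PDGFA was at 6.98, 6.2 and 8.23 TPM in DKO1 and 4.66, 3.58 and 3.61 TPM in WT, and it rose 1.81-fold (log2 difference 0.72, SE 0.17, limma adjusted p = 0.0191). Neither group pair overlapped, yet both calls were lost under quantile normalization (adjusted p = 0.0816 for PDGFC and 0.0861 for PDGFA). The PDGFC call was also lost without WT replicate 3 (adjusted p = 0.052), and that of PDGFA without DKO1 replicate 1 (0.0542), WT replicate 2 (0.0834) or WT replicate 3 (0.0836).

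The remaining ligands were near or below the limit for testing. CSF1 was at 2.41, 1.46 and 2.8 TPM in DKO1 and 1.45, 0.71 and 0.77 TPM in WT and did not pass (limma adjusted p = 0.0524). It passed with the replicate number as a block (0.0269), under median-ratio scaling (0.0437) and after removal of mitochondrial rows (0.0294), and without DKO1 replicate 2 (0.0189) or WT replicate 1 (0.0478). PDGFB was at 2.8, 1.83 and 3.17 TPM in DKO1 and 1.98, 1.39 and 1.13 TPM in WT and did not pass either (limma adjusted p = 0.102; 0.036 without DKO1 replicate 2). PDGFD was at 0.35 to 0.48 TPM in DKO1 and 0 to 0.01 TPM in WT, FLT3LG at 0.09 to 0.15 and 0 to 0.09 TPM, and IL34 was above 0 in 1 sample alone, DKO1 replicate 3 at 0.02 TPM; these were not tested. By level the ligands ran KITLG, PDGFC, PDGFA, PDGFB and CSF1 in both lines, and PDGFB and CSF1 overlapped in each line, as did PDGFC and PDGFA in WT but not in DKO1. Thus 2 of 4 tested ligands other than KITLG rose and 0 fell, beside 18.8% higher and 9.6% lower of all tested genes. The median log2 difference of the 4 was 0.71, beside 0.07 for all tested genes.

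KIT had the highest level of the class III receptors in DKO1 and the lowest in WT, all of them under 1 TPM. PDGFRB, a receptor of mesenchymal cells, was at 0.29, 0.36 and 0.33 TPM in DKO1 and 0.53, 0.19 and 0.15 TPM in WT. PDGFRA, which lies next to KIT among protein-coding genes, was at 0.18, 0.34 and 0.32 TPM in DKO1 and 0.02, 0.05 and 0 TPM in WT. CSF1R, the receptor of macrophages, was at 0.02 to 0.15 TPM in DKO1 and 0 to 0.05 TPM in WT, and FLT3, a receptor of blood progenitors, at 0.03 to 0.08 and 0.06 to 0.19 TPM. In DKO1 the KIT values lay above those of every other class III receptor, and PDGFRB and PDGFRA overlapped. None of the 4 receptors besides KIT was tested, and the groups separated for PDGFRA alone.

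**Figure D2:**
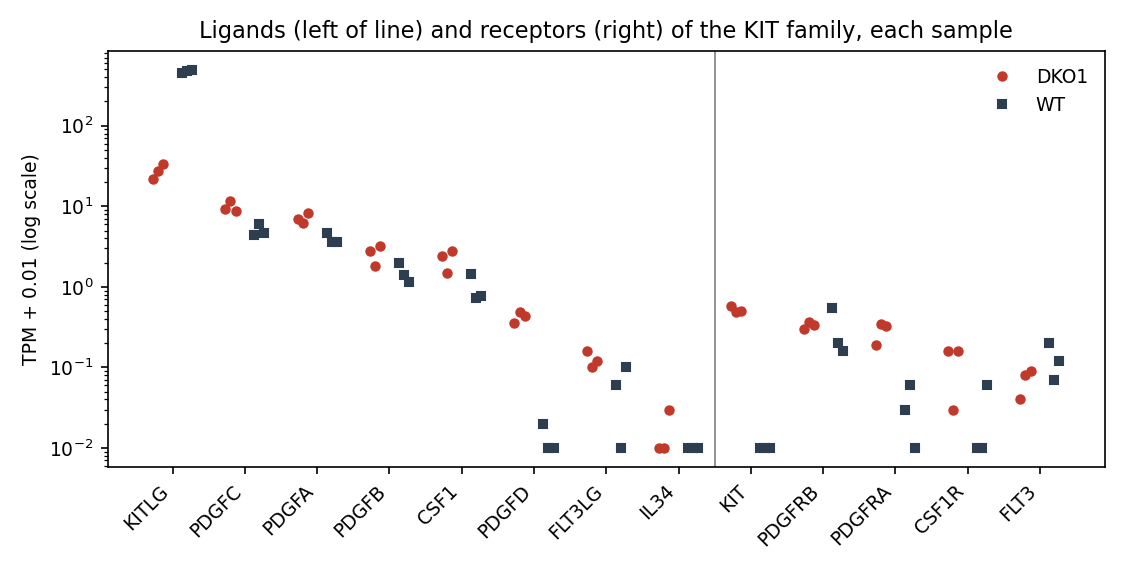
Levels of the 8 class III ligands (left of the line) and 5 receptors (right) in each sample, as TPM + 0.01 on a log axis, with DKO1 as circles left of WT as squares for each gene. KITLG is the top ligand in both lines, and every receptor value lies below 1 TPM.

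Of 4 proteases that act on KITLG, 1 was tested and it did not pass. Without a filter on low values, 1 of the 4 was called higher, in a fit that called 4400 genes higher. The share over all genes in that fit was not counted, so nothing about the proteases is concluded from it. ADAM17, a sheddase of many membrane proteins including KITLG, was at 21.62, 27.74 and 22.69 TPM in DKO1 and 21.59, 23.51 and 18.2 TPM in WT (limma adjusted p = 0.436). ADAM33 was listed at 0 in all WT samples and at 0.32, 0.41 and 0.89 TPM in DKO1. MMP9 was at 0.08 to 0.28 TPM in DKO1 and 0 to 0.09 TPM in WT, and CMA1, the mast cell chymase, was listed at 0 in all 6 samples.

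Most genes of the machinery downstream of KIT were expressed in both lines. Of 30 genes for adaptors and proximal signalling, 23 were tested, 2 rose and 2 fell, with a median log2 difference of 0.05, beside 28.4% of all tested genes called in either direction. With the replicate number as a block, 5 rose and 3 fell, beside 22.4% higher and 13.4% lower of all tested genes in that fit. FYN, a SRC family kinase, was at 21.42, 21.48 and 22.09 TPM in DKO1 and 9.59, 10.21 and 7.81 TPM in WT, and it rose 2.35-fold (log2 difference 1.16, SE 0.14, limma adjusted p = 0.000873). STAT3, a transcription factor phosphorylated downstream of many receptors, averaged 18.8 ± 1.58 TPM in DKO1 and 11.4 ± 0.838 TPM in WT (SD, n = 3 each; limma adjusted p = 0.01, and 0.055 without WT replicate 3). PIK3R1, the regulatory subunit of PI3K that binds KIT, was at 12.25, 18.09 and 15.99 TPM in DKO1 and 28.57, 32.14 and 25.18 TPM in WT, and fell by 0.86 on the log2 scale (SE 0.18, limma adjusted p = 0.0101). YES1, another SRC family kinase, was at 32.76, 46.98 and 59.97 TPM in DKO1 and 70.55, 82.84 and 72.82 TPM in WT (limma adjusted p = 0.0407). Its call was lost in 5 of the 6 fits with 1 sample removed, all but the one without DKO1 replicate 3 (adjusted p from 0.0619 to 0.13), and without a filter (0.072).

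All 17 genes of the RAS, ERK and AKT kinase list were tested, with a median log2 difference of 0.26. Of these, 2 rose and 0 fell, beside 18.8% higher and 9.6% lower of all tested genes. The blocked fit called 4 higher and 1 lower, beside 22.4% and 13.4% of all tested genes in that fit. AKT1 and AKT2, kinases activated downstream of PI3K, were at 11.53 to 27.95 and 5.07 to 9.13 TPM in DKO1 and at 10.53 to 15.88 and 6.25 to 9.26 TPM in WT, and did not pass. MAP2K1, the kinase that activates ERK, was at 63.73, 72.66 and 55.75 TPM in DKO1 and 47.05, 50.49 and 43.19 TPM in WT (limma adjusted p = 0.0478). That call was lost in 5 of the 6 fits with 1 sample removed, all but the one without DKO1 replicate 3 (adjusted p from 0.0915 to 0.177), and under median-ratio scaling (0.278).

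Of 13 genes that restrain or modulate KIT signalling, 9 were tested. Of these 9, 2 rose and 1 fell, beside 18.8% higher and 9.6% lower of all tested genes. The blocked fit called 3 higher and 1 lower, beside 22.4% and 13.4% of all tested genes in that fit. SH2B3, also called LNK, an adaptor that dampens KIT signalling in blood cells, was at 12.29, 11.99 and 11.13 TPM in DKO1 and 5.73, 5.91 and 5.69 TPM in WT, 2.04-fold higher (log2 difference 0.92, SE 0.13, limma adjusted p = 0.00208). CBLB, a ubiquitin ligase, was at 9.87, 16.19 and 9.98 TPM in DKO1 and 6.21, 7.78 and 6.75 TPM in WT (limma adjusted p = 0.0497), a call lost in 5 of the 6 fits with 1 sample removed, all but the one without DKO1 replicate 3 (adjusted p from 0.0644 to 0.149), and with median-ratio scaling (0.125) or quantile normalization (0.184). PTPN11, the phosphatase SHP2, which carries signals from KIT to RAS, fell to 64.76, 80.37 and 101.29 TPM in DKO1, against 131.14, 142.37 and 137.73 TPM in WT (limma adjusted p = 0.0135, and 0.0546 without WT replicate 2 and 0.0577 without WT replicate 3). In KITLG, YES1 and PTPN11 alike, DKO1 replicate 1 was the lowest sample and DKO1 replicate 3 the highest of the DKO1 samples. Other genes had the same order, among them HIF1A (59.5, 68.55 and 95.48 TPM in DKO1 replicates 1, 2 and 3). Its share over all tested genes was not counted.

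Genes whose transcription follows ERK activity moved in both directions. All 15 were tested, 4 rose (26.7%) and 3 fell (20%), beside 18.8% higher and 9.6% lower of all tested genes. The median log2 difference was 0.08, beside 0.07 for all tested genes. In the blocked fit 4 were higher and 4 lower, beside 22.4% and 13.4% of all tested genes in that fit. DUSP6, a phosphatase that inactivates ERK, was at 156.6, 176.41 and 156.06 TPM in DKO1 and 37.3, 36.1 and 27.1 TPM in WT, a 4.87-fold rise (log2 difference 2.26, SE 0.15, limma adjusted p = 4.24e-05). SPRY2, a feedback inhibitor of receptor signalling, was at 14.29, 15.53 and 10.81 TPM in DKO1 and 4.57, 5.05 and 4.51 TPM in WT, 2.88-fold higher (limma adjusted p = 0.00109). DUSP4, another ERK phosphatase, averaged 41.6 ± 2.76 TPM in DKO1 and 19.9 ± 2.25 TPM in WT (SD, n = 3 each; limma adjusted p = 0.00106). MYC fell to 71.1, 64.12 and 58.86 TPM in DKO1, against 140.35, 149.73 and 120.27 TPM in WT (log2 difference −1.07, SE 0.13, limma adjusted p = 0.000762). The other called genes are named after their values were seen: the cyclin gene CCND1 rose 1.98-fold (limma adjusted p = 0.000811), and SPRY4 and EGR1 fell (0.0478 and 0.0334). The SPRY4 call was lost in 6 of 6 fits with 1 sample removed (limma adjusted p from 0.0659 to 0.167). That of EGR1 was lost in 5 of 6, all but the one without WT replicate 3 (0.051 to 0.117). Over all 9 lists of family, signalling and regulatory genes, 80 of 105 genes were tested, 16 rose (20%) and 7 fell (8.75%), shares near the 18.8% and 9.6% of all tested genes. Of these 80, the blocked fit called 23 higher and 10 lower, beside 22.4% and 13.4% of all tested genes in that fit.

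**Figure D3:**
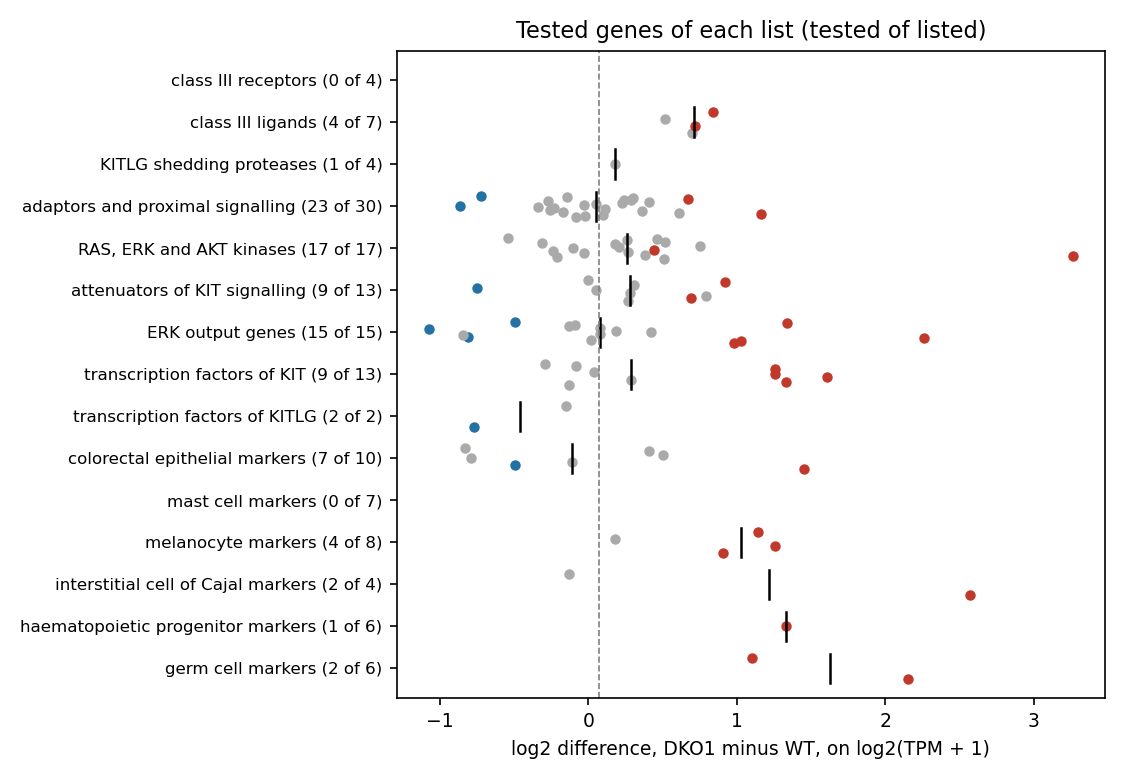
Log2 difference, DKO1 minus WT, of each tested gene on the log2(TPM + 1) scale, by gene list; red points were called higher, blue points lower and grey points neither, the black bars are list medians, and the dashed line is the median of all tested genes. Numbers in brackets give tested genes of those listed, from 0 of 4 for the class III receptors to 17 of 17 for the RAS, ERK and AKT kinases.

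Transcription factors known to act on KIT in other cell types included several that were higher in DKO1. Of 13 listed, 9 were tested, with a median log2 difference of 0.29. Of these 9, 4 rose and 0 fell, beside 18.8% higher and 9.6% lower of all tested genes. MITF and LMO2 reached the 1 TPM needed for testing in the DKO1 samples alone. The count is therefore not evidence about the factors as a whole. RUNX1, a factor of blood and epithelial cells, was at 18.56, 20.62 and 19.59 TPM in DKO1 and 7.64, 7.33 and 7.75 TPM in WT, 2.59-fold higher (log2 difference 1.26, SE 0.13, limma adjusted p = 0.000334). GATA2, a factor of blood progenitors and mast cells, was at 3.61, 3.43 and 4.11 TPM in DKO1 and 1.01, 1.02 and 0.62 TPM in WT, 4.21-fold higher (limma adjusted p = 0.000675). MITF, which acts in melanocytes and mast cells, was at 2.6 to 3.32 TPM in DKO1 and 0.52 to 0.81 TPM in WT, 4.45-fold higher (limma adjusted p = 0.000682). LMO2, a bridging protein of blood transcription complexes, was at 2.99, 2.33 and 2.15 TPM in DKO1 and 0.32, 0.04 and 0.07 TPM in WT (limma adjusted p = 0.000325). TAL1, a blood factor that binds LMO2, stayed at 0.15 to 0.24 TPM in DKO1 and 0.03 to 0.09 TPM in WT, and GATA1 and ZBTB16 were listed at 0 in all samples. ETV1, a factor of interstitial cells of Cajal, was at 7.68 to 11.73 TPM in DKO1 and 9.73 to 11.84 TPM in WT and did not pass.

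Among factors with a described action on KITLG, HIF1A was examined. HIF1A, the oxygen-regulated factor, fell to 59.5, 68.55 and 95.48 TPM in DKO1, against 110.79, 136.91 and 130.65 TPM in WT (log2 difference −0.77, SE 0.19, limma adjusted p = 0.0194). Leaving out DKO1 replicate 1 (adjusted p = 0.0543), WT replicate 2 (0.0745) or WT replicate 3 (0.0788) ended the call.

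The surroundings of the 2 genes were read from the order of genes in GENCODE release 29. Among the 10 nearest genes of any kind around KITLG, 4 were tested, and 5 small RNA or pseudogene entries were listed at 0 throughout. Of the 4 tested, 1 rose and 2 fell, beside 18.8% higher and 9.6% lower of all tested genes. TMTC3, a glycosyltransferase gene and the nearest protein-coding gene on one side, was at 10.63, 15.44 and 18.82 TPM in DKO1 and 26.52, 30.68 and 27.61 TPM in WT and fell by 0.91 on the log2 scale (SE 0.21, limma adjusted p = 0.0153; 0.0627 without WT replicate 2 and 0.0577 without WT replicate 3). CEP290, a cilium protein gene beyond it, was at 5.6, 8.2 and 15.82 TPM in DKO1 and 18.24, 22.03 and 18.73 TPM in WT (limma adjusted p = 0.0489). That call was lost in 5 of the 6 fits with 1 sample removed, all but the one without DKO1 replicate 3 (adjusted p from 0.0927 to 0.139), and with a pseudocount of 0.1 (0.0534). As with KITLG, both genes were lowest in DKO1 replicate 1 and highest in DKO1 replicate 3 among the DKO1 samples. That order was not particular to these neighbours, since HIF1A on chromosome 14 had it too. Its share over all tested genes was not counted. C12orf29 was at 78.75, 102.89 and 95.92 TPM in DKO1 and 114.43, 131.59 and 122.43 TPM in WT and did not pass (limma adjusted p = 0.0536), though it did with the replicate block (0.0201), under median-ratio scaling (0.0348) and without DKO1 replicate 2 (0.0345).

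On the other side of KITLG the nearest protein-coding gene is DUSP6, the ERK phosphatase described above, which was 4.87-fold higher in DKO1 while KITLG was 17.1-fold lower. LINC02458, a noncoding RNA between them, stayed at 0.16 to 0.23 TPM in DKO1 and 0 to 0.19 TPM in WT. When only protein-coding neighbours were taken, a choice made after the values were seen, 7 of 10 around KITLG were tested. Of these 7, 2 rose and 2 fell, beside 18.8% higher and 9.6% lower of all tested genes. GALNT4, a glycosyltransferase gene past DUSP6, was at 6.18, 8.32 and 8.16 TPM in DKO1 and 3.51, 3.99 and 3.73 TPM in WT (limma adjusted p = 0.00843, and 0.0724 under quantile normalization). It overlaps POC1B and a read-through gene, so its reads are uncertain; POC1B itself was at 19.39 to 27.24 TPM in DKO1 and 18.53 to 23.45 TPM in WT and did not pass. ATP2B1, a calcium pump gene, was at 25.49, 34.46 and 61.85 TPM in DKO1 and 60.22, 73.45 and 70.07 TPM in WT and did not pass (limma adjusted p = 0.0761; 0.0229 with the replicate block, 0.0187 under median-ratio scaling and 0.00304 without DKO1 replicate 3). The genes lower and higher in DKO1 thus lay side by side around KITLG. An antisense gene is annotated across the start of KITLG and another across DUSP6; neither has values here, and since the sources used here do not say whether counting used strand, their reads cannot be told apart from those of KITLG and DUSP6 with certainty.

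Around KIT the genes of any kind were close to silent, and 0 of 10 were tested. GSX2, a brain homeobox gene, and 5 noncoding or pseudogene entries were listed at 0 in every sample. KDR, the VEGF receptor gene on the side away from PDGFRA, was at 0.72, 0.4 and 0.4 TPM in DKO1 and 0.04, 0.04 and 0.16 TPM in WT. The 3 adjacent receptor tyrosine kinase genes PDGFRA, KIT and KDR were each higher in every DKO1 sample than in any WT sample, all below 1 TPM; over all tested genes 27.5% had every DKO1 value above every WT value, and none of the 3 was tested. Among the 10 nearest protein-coding genes, 5 were tested, 1 rose and 0 fell, beside 18.8% and 9.6% of all tested genes. CHIC2 was at 21.03, 25.79 and 16.93 TPM in DKO1 and 10.63, 13.41 and 13.27 TPM in WT (log2 difference 0.72, SE 0.19, limma adjusted p = 0.0261). Its call was lost in 5 of the 6 fits with 1 sample removed, all but the one without DKO1 replicate 3 (adjusted p from 0.0511 to 0.097), and with median-ratio scaling (0.0932) or quantile normalization (0.0752). FIP1L1, SRD5A3, TMEM165 and CLOCK were expressed in both lines and did not pass (limma adjusted p from 0.12 to 0.658), with CLOCK passing under quantile normalization alone (0.0494, log2 difference −0.68).

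**Figure D4:**
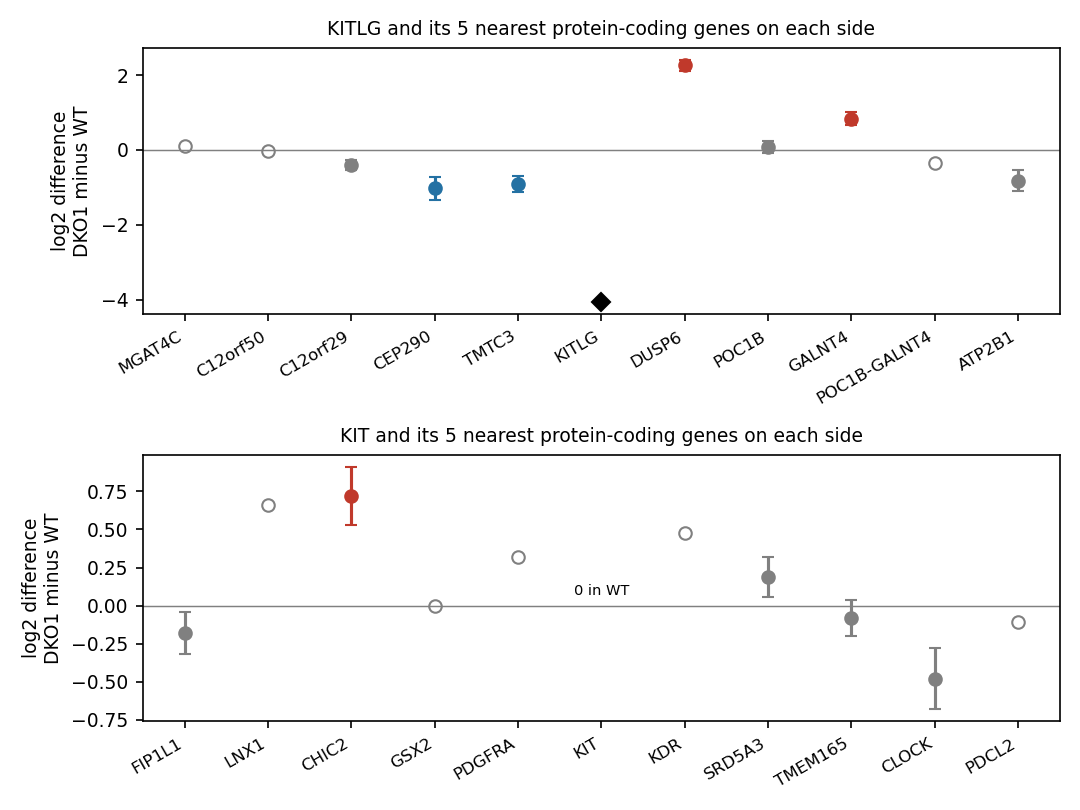
Log2 difference, DKO1 minus WT, of the 5 nearest protein-coding genes on each side of KITLG (top) and KIT (bottom), in their order along the chromosome; filled points with bars are tested genes with their SE (red called higher, blue called lower, grey not called), open points are genes too low to be tested, and the diamond is KITLG at −4.07. TMTC3 and CEP290 lie below 0 and DUSP6 above 0 beside KITLG; KIT has no point because it was listed at 0 in WT.

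Markers of the cell types in which KIT is best known were mostly low, and some rose in DKO1. Of 7 mast cell markers, 4 (TPSAB1, MS4A2, FCER1A and CMA1) were listed at 0 in all samples, and the summed level was 0.04 to 0.21 TPM in DKO1 and 0 in WT. Of 8 melanocyte markers, MLANA and TYR were listed at 0 throughout and the summed level was 9.1 to 10.8 TPM in DKO1 and 2.6 to 3.94 TPM in WT. Besides MITF, the pigment enzyme genes TYRP1 and DCT rose, TYRP1 to 1.32, 1.16 and 1.27 TPM in DKO1, against 0.04, 0.02 and 0 TPM in WT (limma adjusted p = 0.000328), and DCT to 1.5, 1.65 and 2.42 TPM, against 0.41, 0.56 and 0.54 TPM (limma adjusted p = 0.00516). Both calls were lost under quantile normalization (0.179 and 0.156). PMEL, the other melanocyte marker tested, was at 1.98 to 2.76 TPM in DKO1 and 1.63 to 2.59 TPM in WT. It did not pass (limma adjusted p = 0.492). SOX10, a defining factor of melanocytes, was at 0.6 to 1.09 TPM in DKO1 and 0 to 0.02 TPM in WT.

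Among the 4 markers of interstitial cells of Cajal, the chloride channel gene ANO1 was at 30.37, 30.44 and 37.34 TPM in DKO1 and 4.29, 5.21 and 4.45 TPM in WT, a 7.04-fold rise (log2 difference 2.57, SE 0.15, limma adjusted p = 2.77e-05), and ETV1 did not pass. ANO1 is also expressed in epithelia and carcinomas. The summed level of these markers was 40.4 to 45.3 TPM in DKO1 and 14.7 to 16.4 TPM in WT, and its rise came from ANO1. ETV1 averaged 9.68 TPM in DKO1 and 10.6 TPM in WT. PRKCQ was at 0.27 to 0.38 TPM in DKO1 and 0.08 to 0.25 TPM in WT, and GPR20 at 0 to 0.03 and 0 to 0.07 TPM. Blood progenitor markers summed to 4.92 to 5.64 TPM in DKO1 and 0.77 to 1.29 TPM in WT, mostly from GATA2, with CD34 at 0 to 0.04 TPM in DKO1 and 0 in WT and the pan-leukocyte gene PTPRC at 0.43 to 0.61 TPM in DKO1 and 0 in WT. Germ cell markers summed to 8.21 to 9.83 TPM in DKO1 and 1.38 to 2.07 TPM in WT; DAZL, a germ cell RNA-binding protein, was at 3.25, 3.68 and 3.53 TPM in DKO1 and 0, 0.02 and 0 TPM in WT (limma adjusted p = 2.64e-05), TFAP2C rose 2.85-fold (limma adjusted p = 0.00277), and NANOS3 was listed at 0 throughout. Over the 6 marker lists together, 16 of 41 genes were tested, 8 rose (50%) and 1 fell (6.25%), with 3 lower in the blocked fit, beside 18.8% and 9.6% of all tested genes. TYRP1, DCT, MITF and DAZL reached the 1 TPM needed for testing in the DKO1 samples alone, and CDX2 in the WT samples alone. Those shares are therefore not evidence about the markers as a whole. In the epithelial list, CDH1, the E-cadherin gene, rose 3.3-fold (limma adjusted p = 0.000418) and CDX2, an intestinal transcription factor, fell to 0.643 ± 0.107 TPM in DKO1, against 1.31 ± 0.0808 TPM in WT (SD, n = 3 each; limma adjusted p = 0.026; without WT replicate 1, 2 or 3 it was 0.0953, 0.0789 and 0.102). The part of any other cell type in the KIT values was not tested.

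The genes whose profile over the 6 samples was nearest to that of KITLG were WNT16, ALPK2, IL20RA, LINC02331 and NR5A2. Nearness was the root mean square difference between log2(TPM + 1) profiles, each centred on its own mean, and it ran from 0.172 for WNT16 to 0.484 for NR5A2. WNT16, a secreted WNT ligand, was at 0.56, 0.81 and 0.63 TPM in DKO1 and 26.88, 26.96 and 27.73 TPM in WT. Its mean was 40.8-fold lower in DKO1, against 17.1-fold for KITLG. The log2(TPM + 1) differences, −4.08 and −4.07, were close because this scale understates changes of low genes. IL20RA, a cytokine receptor subunit, was at 0.45, 0.76 and 0.75 TPM in DKO1 and 17.5, 18.74 and 20.02 TPM in WT, with a Pearson correlation to KITLG of 0.999 over the 6 samples. A correlation over 2 separated groups of samples is shared by many genes: 502 of the tested genes had one of at least 0.95 with KITLG. KIT was below the limit for testing, so no such genes were sought for it. The list depends on the measure: with a pseudocount of 0.1, 2 of the 5 genes were again among the nearest, IL20RA and LINC02331, and WNT16 was not. By Pearson correlation 1 was, IL20RA.

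**Figure D5:**
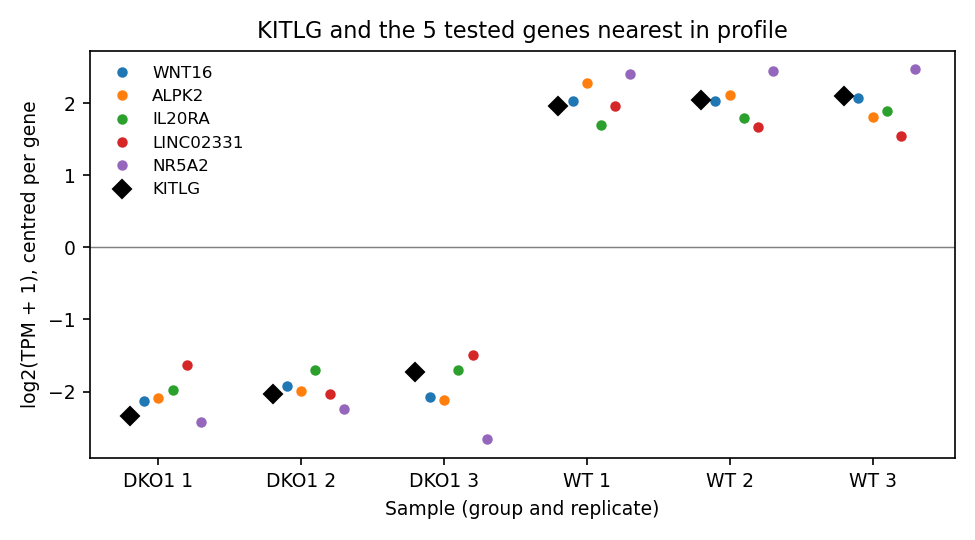
KITLG (diamonds) and the 5 tested genes nearest to it in profile (circles), as log2(TPM + 1) centred on each gene's mean over the 6 samples, with DKO1 samples left of WT samples. All 6 genes lie below 0 in the DKO1 samples and above 0 in the WT samples.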

How the data were processed

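RNA was measured in 3 DKO1 and 3 WT samples, per the labels from stranded messenger RNA libraries. The authors deposited TPM per gene, rounded to 2 decimals. The submitters' processing notes name, without role or order, the aligner STAR (2.5.3a), the quantifier RSEM (1.2.21), Trim Galore (0.4.0), edgeR (3.12.1) and FastQC, and the builds hg19 and GRCh37; annotation release and strand setting: not given in the sources used here. TPM keeps no record of depth, so depth is unknown and no counting interval is given. Of 57820 human rows, 68.4% had a symbol; 77 rows of other names stayed out of the tests. Nothing in the labels shows that replicates came from separate cultures, so the p-values reflect only variation among these samples, possibly technical.

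The test was limma 3.58.1 (R 4.3.3) on log2(TPM + 1) with a variance trend, for genes with at least 1 TPM in 3 of 6 samples, adjusted by Benjamini-Hochberg over all 13604, called at an adjusted p below 0.05, and checked on simulated data. This scale understates changes of low genes. No ratio is given where a group mean is below 0.5 TPM. The gene pair and the 15 lists were chosen with earlier results of these data known. Named are every family gene and protease, up to 4 called genes per other list with separated groups, neighbours and the 5 nearest profiles. Some listed genes are not reported here by name. Same-numbered DKO1 and WT samples deviated together from their group means (correlations over genes 0.35, 0.572 and 0.267), so the numbers were taken to pair the samples. The fit with the replicate block stands beside list results whose counts it changes, and further genes it called are named in the closing section. Other alternatives were a pseudocount of 0.1, other filters, scalings and trend settings, and each sample left out in turn with the same tested genes.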

Additional observations from a re-analysis of the deposited data

How the results depend on the processing

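The KITLG difference kept its direction in all settings, between −4.22 and −3.92 with 1 sample left out and at −4.12, −4.22, −4.03 and −3.97 with a pseudocount of 0.1, median-ratio scaling, quantile normalization and rescaling without mitochondrial rows. The DKO1 mean of KIT was 0.706 TPM with that rescaling and 0.485 to 0.53 TPM with 1 sample left out. The median log2 difference of all tested genes was 0.073, and −0.055, −0.066 and 0.173 under those 3 scalings. Genes called higher were 4400 without a filter, 1145 above a mean of 5 TPM and 1705 to 2842 with 1 sample left out; genes called lower were 2094 under median-ratio scaling and 524 to 2079 with 1 sample left out. Among pathway genes 4 were lower without a filter, and 2 to 6 with 1 sample left out, where 11 to 21 were higher. Among markers 14 were higher without a filter and 2 above 5 TPM, and 0 were lower above 5 TPM, 2 under median-ratio scaling, 3 with the replicate block and 0 to 2 with 1 sample left out. Among neighbours 3 were higher without a filter or with protein-coding genes alone, and 1 was lower with a pseudocount of 0.1, without a filter, above 5 TPM or with no variance trend, and 0 to 2 with 1 sample left out. The replicate block called 3053 higher and 1817 lower genes and, beside the calls given with the results, added 11 genes of the lists: GRB2 (0.0328), SHC1 (0.0479), GAB1 (0.0226), PIK3CB (0.0471), MAPK3 (0.0173), PDPK1 (0.0406), RPS6KB1 (0.0491), INPPL1 (0.00424), ETV4 (0.0223), KRT8 (0.011) and KRT18 (0.047, all limma adjusted p); it ended no call of a listed gene. Not called in any setting, POC1B turned to −0.06 under median-ratio scaling and ran from −0.06 to 0.17 with 1 sample left out, and TMEM165 to 0.03 under quantile normalization and rescaling. Of the 5 nearest profiles, 2 recurred with a pseudocount of 0.1 and 1 by correlation. Of 41 called genes named, 23 kept the call in every fit. The unknown depth and the single derived line limit all values. The cause of these shifts was not tested.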
